A study of Mus musculus with 6 samples.

Results

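The aminoacyl-tRNA synthetases are the enzymes that attach each amino acid to its own transfer RNA. They were taken as 36 genes by name, 20 for the cytosolic enzymes and 16 for the mitochondrial ones, from the 21965 genes of the count table. Gars and Kars, the glycine and lysine enzymes, each make both a cytosolic and a mitochondrial form and were counted as cytosolic. All 36 were found in the table, and all 36 had enough reads to be among the 12305 genes tested. The rule names genes and uses no measured value.

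Protein synthesis in the cytosol and in mitochondria uses separate sets of synthetases, and both sets are encoded in the nucleus. The enzymes fall into class I and class II, which have unrelated catalytic folds, and several cytosolic enzymes sit together in a multi-synthetase complex held by the scaffold proteins Aimp1, Aimp2 and Eef1e1. When an amino acid runs short, uncharged transfer RNA activates the kinase Gcn2 (Eif2ak4), which phosphorylates eIF2 and raises translation of the transcription factor Atf4, and many cytosolic synthetase genes are reported Atf4 targets. Wars, the tryptophan enzyme, is in addition a known interferon-gamma response gene of macrophages.

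The study asked how WGP, a β-glucan preparation used to induce trained immunity, acts on lung interstitial macrophages before metastases form. C57Bl/6 mice aged 6 to 8 weeks received either 1 mg WGP or PBS, the saline control, into the peritoneum. The treatment is given as 6 days, the lungs were taken on day 7, and interstitial macrophages were obtained from the digested whole lung by antibody staining. RNA was selected for polyA tails and sequenced in 3 WGP and 3 PBS libraries. The labels name neither the antibodies nor the number of mice behind a library, so every p-value below reflects the spread among the libraries alone, and that spread may be technical.

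The libraries held between 18254678 and 20346517 counts. Counts of markers are to be set against 15.2% of all genes tested that were higher and 15.7% that were lower in WGP libraries. Of 18 interstitial macrophage markers, 3 were higher and 5 lower in WGP libraries, and none was at 0. Their summed levels were 7236 to 8420 CPM (read counts scaled to the TMM-normalised library size) after WGP and 8979 to 10198 CPM after PBS. The log2 fold change was below 0 for 15 of them and above 0 for 3, with a median of -0.56. It ran from -3.01 for Mertk (adjusted p = 0.00014) to 1.03 for Fcgr1 (0.00012). Transcripts that mark other cells moved strongly between the groups as well. All 11 classical monocyte markers were higher (11472 to 14881 CPM in WGP libraries, 4994 to 5746 CPM in PBS libraries), and 14 of 15 alveolar macrophage markers were lower (1363 to 1741 CPM in WGP libraries, 5128 to 7719 CPM in PBS libraries). Of the epithelial markers 8 of 11 were lower (16.6 to 82.3 CPM in WGP, 428 to 886 CPM in PBS libraries), of the endothelial ones 8 of 10 (132 to 155 CPM in WGP, 374 to 397 CPM in PBS libraries) and of the dendritic ones 4 of 9 (120 to 181 CPM in WGP, 356 to 444 CPM in PBS libraries). The alveolar macrophage count was 7 without PBS replicate 1 or without PBS replicate 2, 9 without PBS replicate 3 and 8 without WGP replicate 3. Only 4 epithelial markers were lower without PBS replicate 1 or without WGP replicate 2, and 5 without PBS replicate 3 or without WGP replicate 3, while 11 and 8 interstitial macrophage markers were lower without WGP replicate 1 or WGP replicate 3. Krt8, Krt18, Lamp3, Pdgfra, Cd3d and Cd3g had no count in at least 1 WGP library, and no marker was at 0 in all libraries. Y-linked transcripts summed to 205 to 227 CPM in WGP libraries and to 112, 179 and 9.79 CPM in PBS replicates 1, 2 and 3. The labels do not give the sex of the mice, and the part of sex in the WGP over PBS values was not tested other than by fits with the Y-linked level as a term and without PBS replicates 1 and 3. For the synthetases and the genes named from the lists, the calls that changed with that term are given beside each gene. With that term 8 alveolar macrophage, 5 epithelial and 2 dendritic markers were lower. The part of the cell type markers in the synthetase results was not tested, and in bulk RNA fewer cells of a type and less RNA per cell cannot be told apart.

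Transcripts of the cytosolic enzymes were more abundant than those of the mitochondrial ones in both groups. Per kilobase of messenger RNA, the median level of the 20 cytosolic genes was 21.7 CPM per kb in WGP and 20.6 CPM per kb in PBS libraries. The median of the 16 mitochondrial genes was 5.30 CPM per kb in WGP and 4.996 CPM per kb in PBS libraries. Cytosolic levels ran from 6.99 CPM per kb for Cars to 53.0 CPM per kb for Nars, the asparagine enzyme, in WGP libraries, and in PBS libraries from 8.33 CPM per kb for Yars to 54.3 CPM per kb for Nars. Lars2, the mitochondrial leucine enzyme, stood apart from the other mitochondrial genes at 54.7 ± 2.28 CPM per kb in WGP and 59.9 ± 15.8 CPM per kb in PBS libraries (SD, n = 3 each). Next among the mitochondrial genes came Cars2, at 13.8 ± 0.86 CPM per kb in WGP and 12.5 ± 1.53 CPM per kb in PBS libraries. The lowest of all per kilobase was Mars2, the mitochondrial methionine enzyme, at 0.47 ± 0.09 CPM per kb in WGP and 0.47 ± 0.13 CPM per kb in PBS libraries. That rank rests on its transcript length of 11294 bases, the longest of the members. By CPM Mars2 stood at 5.34 in WGP and 5.30 in PBS libraries, above Pars2 at 1.27 and 2.12.

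**Figure D1:**
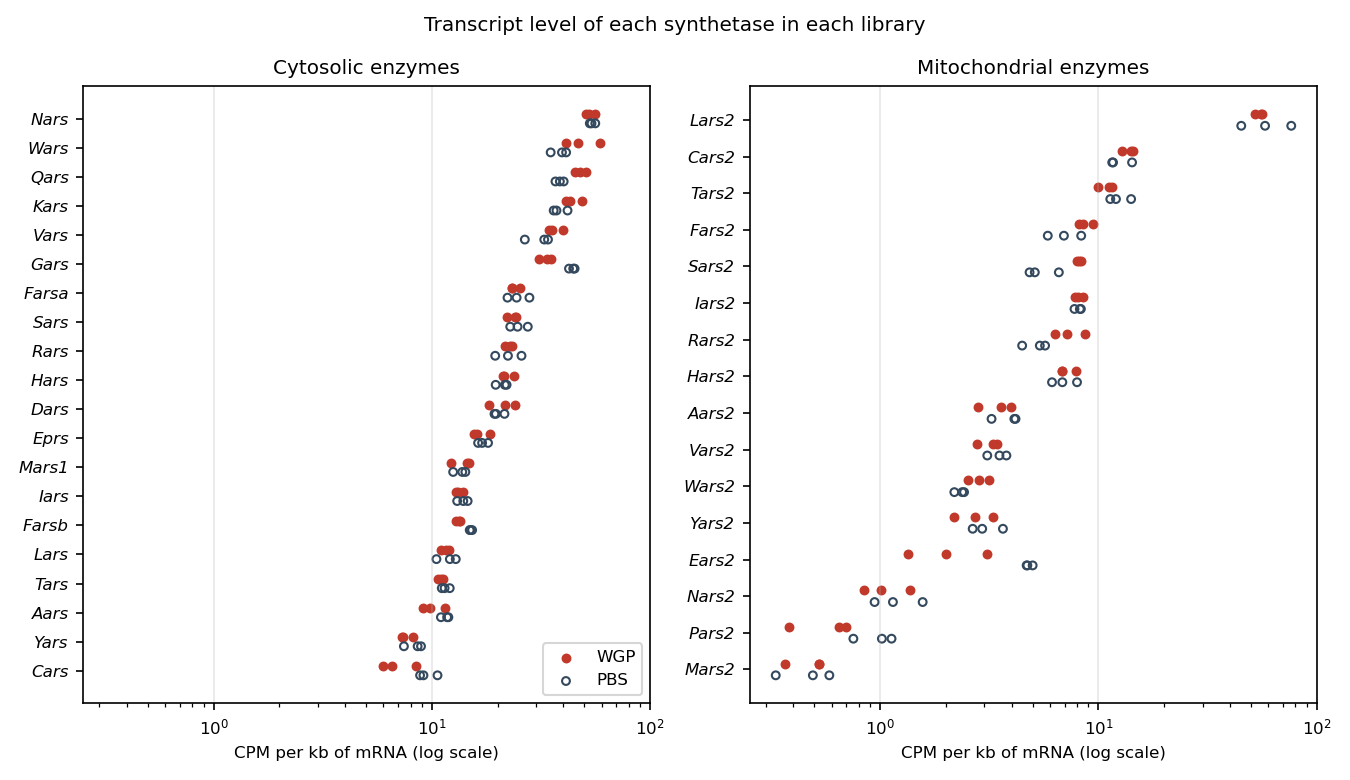
Level of each synthetase transcript in each library, in CPM per kilobase of messenger RNA on a log axis, with filled points for WGP and open points for PBS libraries. The cytosolic medians were 21.7 (WGP) and 20.6 (PBS) CPM per kb, the mitochondrial medians 5.30 and 4.996 CPM per kb, and Lars2 lay near the most abundant cytosolic enzyme.

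The summed level of each set was nearly equal in the groups. The cytosolic genes summed to 1356 ± 22.03 CPM in WGP and 1337 ± 27.6 CPM in PBS libraries (SD, n = 3 each), and the groups overlapped. The mitochondrial genes summed to 439 ± 13.98 CPM in WGP and 455 ± 60.4 CPM in PBS libraries. The wide PBS spread came with Lars2, at 220, 203 and 216 CPM in WGP libraries and 176, 298 and 226 CPM in PBS libraries. Without Lars2 the mitochondrial sum was 226 ± 11.2 CPM in WGP and 222 ± 6.74 CPM in PBS libraries.

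Few single synthetases changed. By edgeR's quasi-likelihood test, adjusted over all genes tested with a threshold of 0.05, 5 of 36 were called (13.9%), where 31.0% of all genes tested were. Qars and Sars2 were higher after WGP (15.2% of all genes were), and Gars, Cars and Ears2 were lower (15.7% of all genes were). Of the cytosolic genes 1 was higher, 2 were lower and 17 did not pass (15.0% called), with a median log2 fold change of -0.03. Of the mitochondrial genes 1 was higher, 1 was lower and 14 did not pass (12.5% called), with a median of -0.06. The median of all genes tested was -0.02. A difference between the cytosolic and mitochondrial medians was not tested. The WGP libraries lay wholly above the PBS libraries for 6 synthetases (23.2% of all genes did), wholly below for 5 (24.9%) and overlapped for 25, so that 11 of 36 did not overlap, against 48.1% of all genes.

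The changes were also small in size. The median size of the log2 fold change was 0.15 over the 36 genes, 0.08 over the cytosolic and 0.17 over the mitochondrial ones, against 0.31 over all genes tested. For 25 of the 36 genes, 18 cytosolic and 7 mitochondrial, the 95% interval of the change lay within 1.5-fold in either direction. The median SE of the log2 fold change was 0.10 for the cytosolic and 0.18 for the mitochondrial genes. It was 0.12 over the 36 genes and 0.15 over all genes tested. The part of this precision in the smaller median size was not tested. The mitochondrial genes held both the lowest count in a library, 15 reads for Pars2, the proline enzyme, and the highest, 5739 reads for Lars2, and Iars2 was measured more tightly (SE 0.09) than several cytosolic genes.

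**Figure D2:**
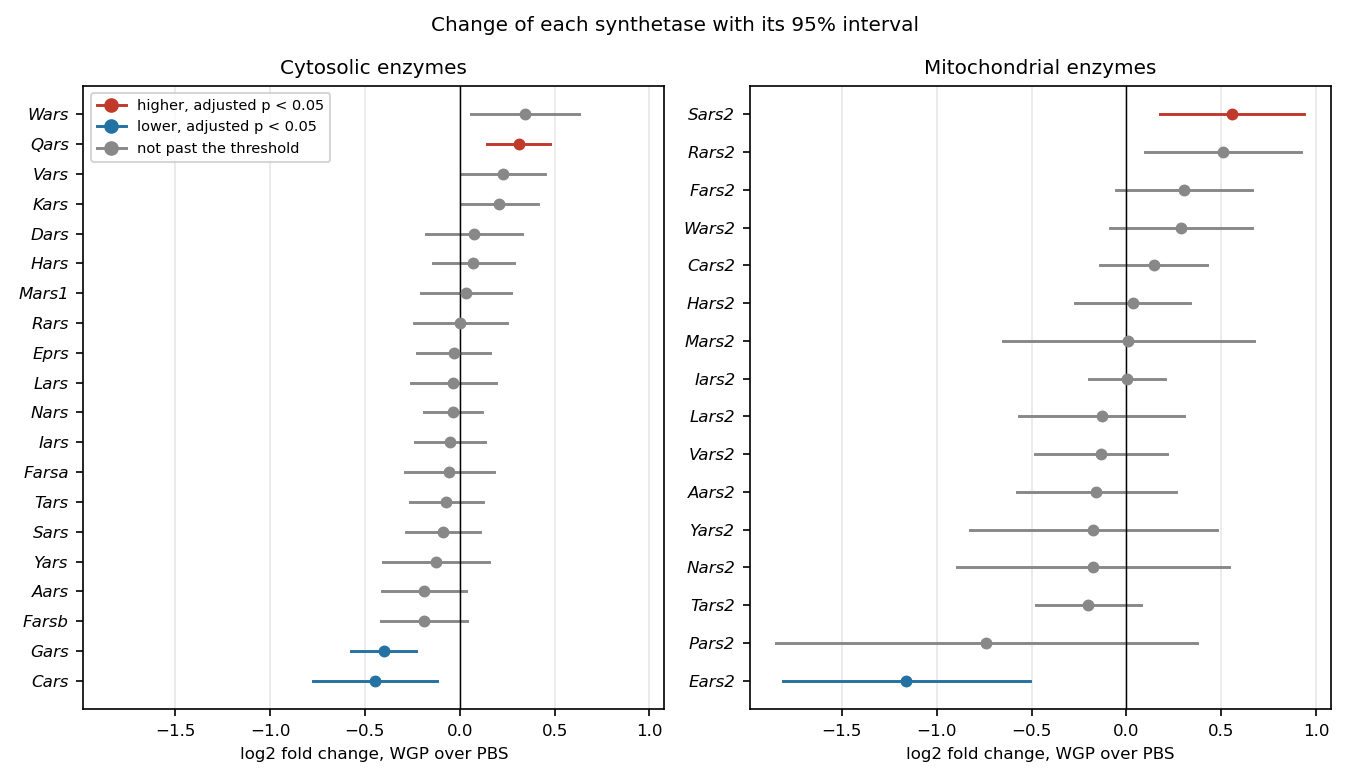
Log2 fold change, WGP over PBS, of each synthetase with its 95% interval from the edgeR fit, cytosolic enzymes on the left and mitochondrial ones on the right. Qars and Sars2 passed as higher, Gars, Cars and Ears2 as lower. The median SE was 0.10 for the cytosolic and 0.18 for the mitochondrial genes, and their ranges of interval width overlapped.

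Gars (ENSMUSG00000029777, GRCm38 chromosome 6, 55038007 to 55079500, plus strand), the glycine enzyme of both compartments, was lower after WGP. It had 73.5, 84.1 and 80.3 CPM in WGP libraries and 107, 106 and 101 CPM in PBS libraries. Every WGP library lay below every PBS library. The level was 1.32-fold lower (log2 fold change -0.40 ± 0.08 SE, adjusted p = 0.0031), and Gars alone of the 5 passed the test under all 17 alternative settings.

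Qars (ENSMUSG00000032604, chromosome 9, 108507706 to 108515941, plus strand), the glutamine enzyme and a member of the multi-synthetase complex, was higher. Its levels were 142, 126 and 133 CPM in WGP libraries and 113, 103 and 108 CPM in PBS libraries, without overlap. This was a 1.24-fold difference (log2 fold change 0.31 ± 0.07, adjusted p = 0.0098). The call was lost with library sizes alone as the scaling (adjusted p = 0.067) and without PBS replicates 1 and 3 (0.055), where the log2 fold changes were 0.21 and 0.38. The fit without PBS replicates 1 and 3 keeps PBS replicate 2 as a lone library, so its spread comes from the WGP libraries and the lone library is assumed to vary like them.

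Promoter sequences are shown for Gars, the lower gene with the most stable call, Tars, a gene near 0 with the same element, and Qars, the higher cytosolic gene. Each window runs from 250 bases before to 50 bases after the RefSeq start site on GRCm38.p6, 5′ to 3′ on the gene's own strand. Capitals mark the C/EBP-ATF response element, the site through which Atf4 acts, in Gars (chr6:55037751-55038050, plus strand) and Tars (chr15:11399609-11399908, minus strand), and an interferon-stimulated response element in Qars (chr9:108507755-108508054, plus strand). In each of these windows the motif reads on the opposite strand, so the capitals are its reverse complement.
Gars: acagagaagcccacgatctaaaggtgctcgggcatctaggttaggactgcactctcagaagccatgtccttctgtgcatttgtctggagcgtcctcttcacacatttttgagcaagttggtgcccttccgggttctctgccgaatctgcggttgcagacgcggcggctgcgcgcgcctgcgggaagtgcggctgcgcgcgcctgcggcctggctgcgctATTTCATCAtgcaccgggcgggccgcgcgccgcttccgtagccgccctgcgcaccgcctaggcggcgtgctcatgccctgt
Tars: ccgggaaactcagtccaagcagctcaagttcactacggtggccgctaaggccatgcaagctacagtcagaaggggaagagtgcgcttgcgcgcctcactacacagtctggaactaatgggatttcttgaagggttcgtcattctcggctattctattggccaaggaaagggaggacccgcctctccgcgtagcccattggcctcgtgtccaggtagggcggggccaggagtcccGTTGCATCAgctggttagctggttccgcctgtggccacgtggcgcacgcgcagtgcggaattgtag
Qars: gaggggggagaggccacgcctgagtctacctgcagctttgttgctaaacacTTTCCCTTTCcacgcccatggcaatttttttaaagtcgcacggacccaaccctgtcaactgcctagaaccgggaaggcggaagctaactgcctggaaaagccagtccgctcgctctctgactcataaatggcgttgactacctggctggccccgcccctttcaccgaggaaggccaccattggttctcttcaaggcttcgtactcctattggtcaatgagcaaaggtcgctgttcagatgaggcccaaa

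Cars (ENSMUSG00000010755, chromosome 7, 143557230 to 143600090, minus strand), the cysteine enzyme, had 21.3, 27.1 and 19.2 CPM in WGP libraries and 29.5, 34.2 and 28.5 CPM in PBS libraries. The groups did not overlap, but the highest WGP library came close to the lowest PBS library. The level was 1.36-fold lower (log2 fold change -0.45 ± 0.15, adjusted p = 0.042). This call was lost without WGP replicate 1 (adjusted p = 0.1), WGP replicate 3 (0.15), PBS replicate 1 (0.088), PBS replicate 2 (0.14) or PBS replicate 3 (0.053). It was also lost with the Y-linked covariate (0.062) and in 2 other settings.

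Ears2 (ENSMUSG00000030871, chromosome 7, 122037213 to 122067263, minus strand), the mitochondrial glutamate enzyme, had the largest change of the 36 genes. It had 4.10, 6.34 and 2.74 CPM in WGP libraries and 9.67, 10.2 and 9.60 CPM in PBS libraries, from 50 to 120 reads per WGP library and 197 to 202 reads per PBS library. All WGP libraries lay below all PBS libraries, with a coefficient of variation of 41.4% among WGP and 3.49% among PBS libraries. The level was 2.24-fold lower (log2 fold change -1.16 ± 0.30, adjusted p = 0.013), and the call was lost without PBS replicates 1 and 3 (log2 fold change -1.21, adjusted p = 0.14). Exons of Ears2 share 89 bases with Ubfd1 on the other strand, whose own log2 fold change of -0.32 did not pass (adjusted p = 0.16).

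Sars2 (ENSMUSG00000070699, chromosome 7, 28741992 to 28753871, plus strand), the mitochondrial serine enzyme, was higher. It had 15.5, 14.9 and 15.2 CPM in WGP libraries and 9.04, 9.55 and 12.3 CPM in PBS libraries. The WGP libraries were close together and lay above all PBS libraries. The level was 1.47-fold higher (log2 fold change 0.56 ± 0.17, adjusted p = 0.030). The call was lost without WGP replicate 1 (adjusted p = 0.065), WGP replicate 2 (0.054), WGP replicate 3 (0.071), PBS replicate 1 (0.13) or PBS replicate 2 (0.093), and in 4 other settings. With the replicate number as a block its adjusted p was 0.051.

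**Figure D3:**
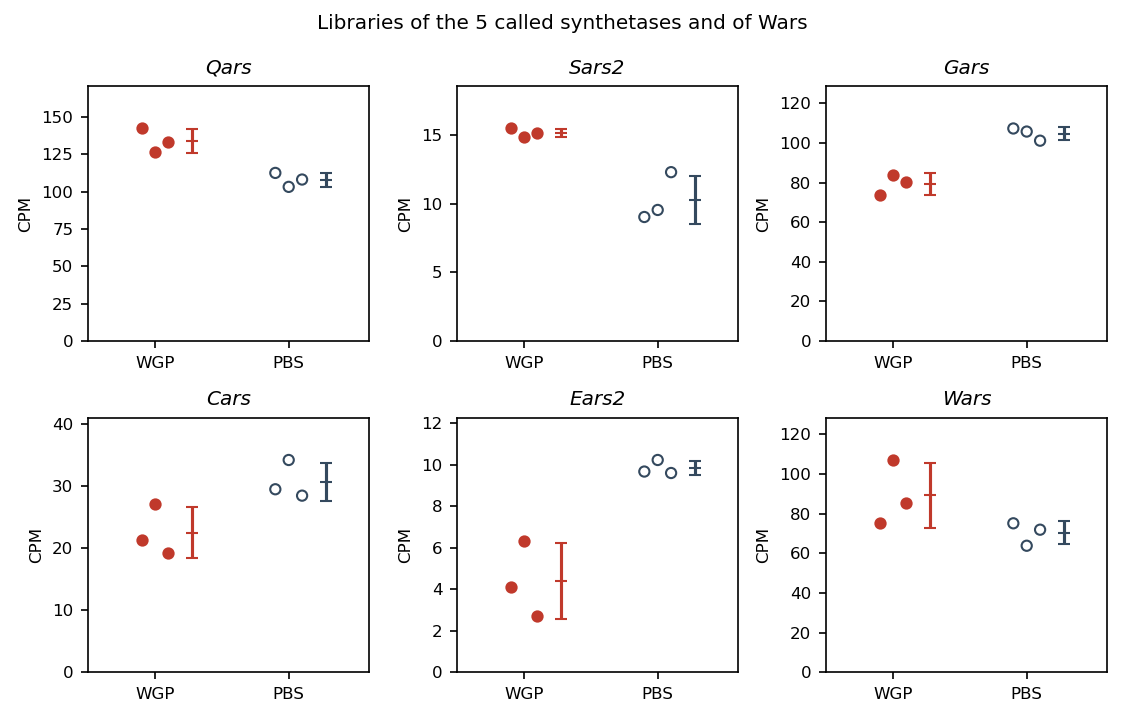
CPM of the 5 called synthetases and of Wars in each library, WGP on the left and PBS on the right of each panel, with the mean and SD of 3 libraries beside the points. Qars, Sars2 and Wars lay above the PBS libraries and Gars, Cars and Ears2 below them, and for Wars the lowest WGP and the highest PBS library were nearly equal.

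Wars (ENSMUSG00000021266, chromosome 12, 108860030 to 108894174, minus strand) did not pass the test. It had 75.3, 107 and 85.3 CPM in WGP libraries and 75.2, 63.9 and 72.0 CPM in PBS libraries, so the groups were separated by less than 1 CPM. Its log2 fold change was 0.34 ± 0.13 (adjusted p = 0.066), and it passed with DESeq2 (0.048) and without WGP replicate 1 (0.016).

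Among the other cytosolic class I enzymes, Vars, the valine enzyme, had a log2 fold change of 0.23 ± 0.10 (adjusted p = 0.11) at 147, 142 and 165 CPM in WGP libraries and 135, 110 and 141 CPM in PBS libraries. Its groups did not overlap but were separated by about 1 CPM, and it passed when the Y-linked level entered as a covariate (0.049). It also passed without PBS replicates 1 and 3 (0.031), against PBS replicate 2 alone, its lowest library. The arginine enzyme Rars (0.00 ± 0.11), the methionine enzyme Mars1 (0.03 ± 0.11), the leucine enzyme Lars (-0.03 ± 0.10), the isoleucine enzyme Iars (-0.05 ± 0.08) and the tyrosine enzyme Yars (-0.13 ± 0.13) lay near 0 with adjusted p from 0.48 to 0.98. Eprs, a single protein that charges both glutamate and proline and joins both classes, had -0.03 ± 0.09.

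Among the cytosolic class II enzymes, the lysine enzyme Kars of both compartments had 0.21 ± 0.09 (adjusted p = 0.11) at 86.6, 98.4 and 82.6 CPM in WGP libraries and 84.1, 72.6 and 74.8 CPM in PBS libraries, which overlapped. The alanine enzyme Aars had -0.19 ± 0.10 (adjusted p = 0.18) and passed without WGP replicate 2 (0.045). The phenylalanine enzyme has separate subunits, of which Farsb had -0.19 ± 0.10 (adjusted p = 0.19) with WGP libraries below PBS libraries, and Farsa -0.06 ± 0.11 with overlap. The aspartate enzyme Dars (0.08 ± 0.11), the histidine enzyme Hars (0.07 ± 0.10), the asparagine enzyme Nars (-0.04 ± 0.07), the threonine enzyme Tars (-0.07 ± 0.09) and the serine enzyme Sars (-0.09 ± 0.09) did not pass either. Nars was the most tightly measured of these, at 153, 140 and 144 CPM in WGP libraries and 148, 154 and 145 CPM in PBS libraries.

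Among the mitochondrial enzymes that did not pass, Rars2 (arginine) had 0.51 ± 0.19 (adjusted p = 0.060) and Wars2 (tryptophan) 0.29 ± 0.17 (0.23), both with WGP libraries above PBS libraries. Rars2 had 16.2, 13.4 and 11.8 CPM in WGP libraries and 8.36, 10.1 and 10.6 CPM in PBS libraries. Pars2 (proline) had -0.74 ± 0.50 (0.30) with WGP libraries below, at 15 to 28 reads in WGP and 34 to 52 reads in PBS libraries. Overlapping groups were seen for Fars2 (phenylalanine, 0.30 ± 0.16), Cars2 (cysteine, 0.14 ± 0.13), Hars2 (histidine, 0.03 ± 0.14), Mars2 (methionine, 0.01 ± 0.30) and Iars2 (isoleucine, 0.00 ± 0.09). They were seen too for Vars2 (valine, -0.13 ± 0.16), Aars2 (alanine, -0.16 ± 0.19), Yars2 (tyrosine, -0.17 ± 0.29), Nars2 (asparagine, -0.18 ± 0.33) and Tars2 (threonine, -0.20 ± 0.12). Lars2 had -0.13 ± 0.18 (adjusted p = 0.64), but -0.48 (adjusted p = 0.011) without PBS replicates 1 and 3, where the lone PBS library was the one with its highest level and no spread among PBS libraries entered the test.

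For 13 amino acids a cytosolic and a separate mitochondrial enzyme were both measured. The cytosolic transcript was the more abundant per kilobase in all 6 libraries for 10 of them, and the ratio ran from 0.168 for Lars over Lars2 to 65.9 for Nars over Nars2. The ratio of Vars to Vars2 was 11.6 ± 1.41 in WGP and 8.98 ± 0.60 in PBS libraries, with all WGP libraries above. It was lower in all WGP libraries for Cars to Cars2 (0.50 ± 0.07 in WGP, 0.77 ± 0.15 in PBS), Rars to Rars2 (3.10 ± 0.41 in WGP, 4.38 ± 0.70 in PBS) and Sars to Sars2 (2.90 ± 0.12 in WGP, 4.66 ± 1.12 in PBS). The other 9 ratios overlapped between the groups. Of all genes tested, 48.1% did not overlap by their own levels, and no such share was computed for ratios. A shift of these ratios between the groups was not tested. The log2 fold changes of both partners had the same sign for 9 of the 13 amino acids. Some of the signs belong to values near 0. Rars and Mars2, counted in the 9, each changed sign in 7 of the 17 alternative settings. Iars2, counted as opposite to Iars, did so in 6. Whether partners move together was not tested.

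**Figure D4:**
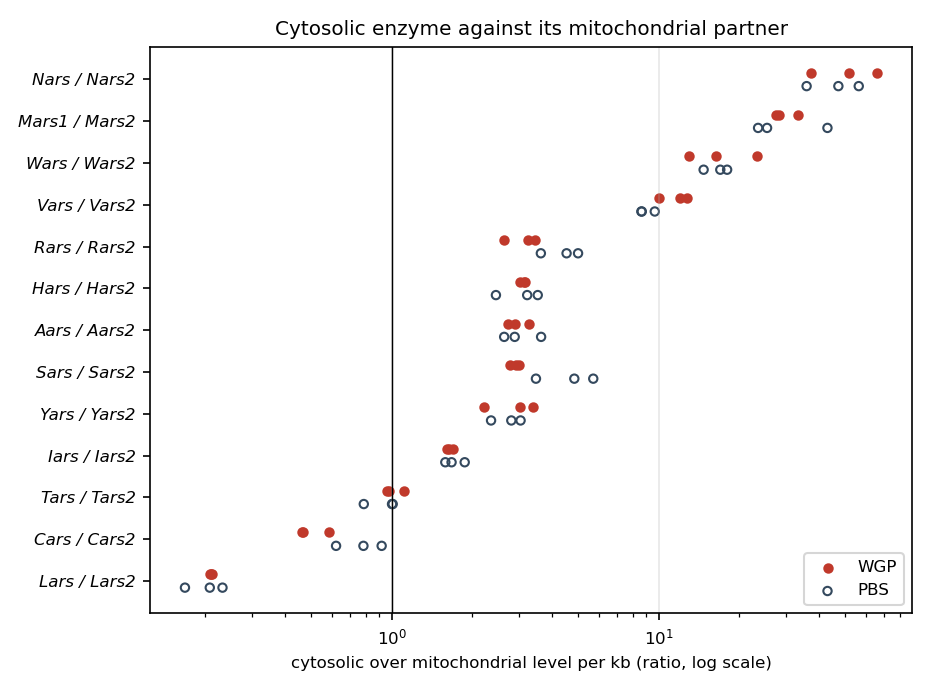
Ratio of the cytosolic to the mitochondrial transcript for 13 amino acids in each library, per kilobase and on a log axis, with filled points for WGP and open points for PBS. The ratios lay between 0.168 and 65.9 and exceeded 1 in all 6 libraries for 10 amino acids.

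Counts by complex and class were small and are set beside 15.2% of all genes called higher and 15.7% called lower. Of the 8 members of the complex 1 was higher (Qars) and none was lower, with a median log2 fold change of 0.02. Of the 12 cytosolic genes outside it none was higher and 2 were lower (Cars and Gars), with a median of -0.08. Class I held 1 higher and 2 lower of 18 (median 0.00), and class II 1 higher and 1 lower of 17 (median -0.07). Among the scaffold proteins, Aimp1 was higher (0.33 ± 0.10, adjusted p = 0.031) at 42.5, 40.7 and 42.0 CPM in WGP libraries and 30.4, 32.7 and 36.4 CPM in PBS libraries. Eef1e1 was lower (-0.64 ± 0.20, adjusted p = 0.034) at 7.07, 9.45 and 6.89 CPM in WGP libraries and 13.5, 12.4 and 10.5 CPM in PBS libraries. For neither gene did the groups overlap, yet both calls were lost without WGP replicate 1 (0.077 for Aimp1, 0.087 for Eef1e1), WGP replicate 3 (0.081 and 0.11), PBS replicate 1 (0.14 and 0.13) or PBS replicate 2 (0.084 and 0.086). That of Eef1e1 was lost with the Y-linked covariate too (0.052), and that of Aimp1 with upper quartile scaling (0.074) and with library sizes alone (0.12). Aimp2 did not pass (-0.45 ± 0.19, adjusted p = 0.092), but it passed as lower with library sizes alone (0.046).

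Of the 12 cytosolic synthetases reported as Atf4 targets none was higher, 2 were lower (Cars and Gars) and 10 had a log2 fold change below 0, with a median of -0.06, where 15.7% of all genes were lower. Over the alternatives the number below 0 ran from 8 (without PBS replicates 1 and 3) to 11 (with either scaling by library sizes or by the upper quartile, and without WGP replicate 1), and it was 9 with the Y-linked covariate, without WGP replicate 3 or without PBS replicate 3. The other 8 cytosolic genes had a median of 0.07, and Qars was the 1 that passed. Of 29 tested Atf4 targets that are not synthetases, Atf4 included, 9 were lower and none was higher, with a median of -0.40, where 15.7% of all genes were lower and 15.2% higher. They included the serine hydroxymethyltransferase Shmt2 (-0.997 ± 0.16, adjusted p = 0.00098), the alanine aminotransferase Gpt2 (-1.39 ± 0.25, 0.0022), the stress cytokine Gdf15 (-2.87 ± 0.45, 0.0033) and the amino acid transporter Slc7a5 (-0.73 ± 0.15, 0.0036). Without PBS replicates 1 and 3, 5 of these genes were lower and 1 was higher, and Slc7a5 did not pass (0.19). Sesn2 was higher without WGP replicate 2 (0.043), and Pycr1, which had too few reads for the test with all libraries, was higher without WGP replicate 3 (0.041). Phgdh and Aldh18a1, lower with all libraries (0.018 and 0.011), did not pass with the Y-linked covariate (0.066 and 0.051). Sesn2, Pycr1, Phgdh and Aldh18a1 were named after their values were seen. Atf4 itself did not pass (-0.14 ± 0.07, adjusted p = 0.16), nor did Eif2ak4 (-0.13 ± 0.11, adjusted p = 0.42).

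Promoter windows of the other members were searched in the same way. The letters searched on both strands were TGATGNAAN for the C/EBP-ATF response element, GAAA, any 2 bases and again GAAA for the interferon-stimulated response element and TTCNNNGAA for the STAT site, bound by signalling factors of the interferon receptors. Where a motif overlapped another, each match was counted. A window was found for 27 of the 36 genes. None was found for Wars, Cars, Vars, Hars, Lars, Nars, Rars, Hars2 or Pars2, so these genes were not searched. The C/EBP-ATF letters were in 5 of these 27 (18.5%), against 2.87% of all tested genes with a window. Those 5 were Aars, Gars, Iars, Tars and Yars, and all were among the 8 reported Atf4 targets with a window, while none of the 19 other synthetases had a match. The leftmost base of the match lay at -31 in Gars and -16 in Tars, and at 4 in Yars, 7 in Iars and both -113 and 9 in Aars, counted from the start site. All 5 genes had a log2 fold change below 0 (Iars was at 0.04 without PBS replicates 1 and 3), but Gars was the 1 that passed. The STAT letters were in Aars, Kars and Nars2 (11.1% of the 27, against 8.44% of tested genes) and the interferon-stimulated letters in Qars, with the leftmost base at -199 (3.7%, against 3.99%). A match describes letters in a window and not a site in use.

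The interferon-gamma response genes of the list, other than Wars, stood above 0 in all 22 tested, and 6 were higher and none lower, where 15.2% of all genes were higher. Without WGP replicate 2, 20 of the 22 stood above 0. Among them were the transcription factor Irf8 (1.03 ± 0.14, adjusted p = 0.0014), the peptide-loading proteins Tapbp (0.45 ± 0.09, 0.0044) and Tap2 (0.46 ± 0.13, 0.025) and the immunoproteasome subunit Psmb10 (0.51 ± 0.11, 0.0066). The number called higher was 14 with DESeq2, with limma-voom or without robust estimation, and 3 with upper quartile scaling, with library sizes alone or without PBS replicate 1. Tap2 did not pass without WGP replicate 3 (0.059), PBS replicate 1 (0.11) or PBS replicate 2 (0.1). The summed level of the list was 6657, 9588 and 7227 CPM in WGP replicates 1, 2 and 3 and 5391, 4921 and 6314 CPM in PBS replicates 1, 2 and 3. Wars, too, was highest in WGP replicate 2, lowest of the WGP libraries in replicate 1 and lowest of all in PBS replicate 2. Among PBS libraries Wars was highest in replicate 1 and the list sum in replicate 3. Whether the level of Wars follows that list was not tested.

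The other lists of translation genes were small, and their counts are to be set against the 15.2% of all genes called higher and the 15.7% called lower. Of 18 other genes of transfer RNA charging and modification, none was higher and 1 was lower, the methyltransferase subunit Wdr4 (-0.50 ± 0.15, adjusted p = 0.030). Its call was lost without WGP replicate 2 (0.07), WGP replicate 3 (0.078), PBS replicate 1 (0.094), PBS replicate 2 (0.06) or PBS replicate 3 (0.081), and with the Y-linked covariate (0.12). The amidotransferase GatCAB makes mitochondrial glutaminyl-tRNA from the product of Ears2, and its subunit genes Gatb (-0.23 ± 0.23), Gatc (0.19 ± 0.12) and Qrsl1 (0.01 ± 0.22) did not pass. Of 5 cytosolic elongation factors Eef2, which moves the ribosome along the message, was higher (0.32 ± 0.07, adjusted p = 0.0043). In this list 3 were higher without PBS replicate 3, and 2 with DESeq2, limma-voom or the Y-linked covariate. The number lower was 1 without WGP replicate 2 or with upper quartile scaling, and 2 with library sizes alone. None of 9 mitochondrial translation factors passed, and 1 was higher without PBS replicate 3. Of 9 genes of eIF2 control 3 were higher. They were the kinases Eif2ak2 (0.85 ± 0.08, adjusted p = 7.2e-05) and Eif2ak1 (0.40 ± 0.07, 0.0023) and the phosphatase subunit Ppp1r15b (0.30 ± 0.08, 0.013). The call of Ppp1r15b was lost without PBS replicate 1 (0.07) and with library sizes alone (0.059). Its log2 fold change was 0.24 without PBS replicates 1 and 3. Of 7 tested genes of Myc and its partners, known regulators of ribosome and synthetase genes, Myc (-1.83 ± 0.29, adjusted p = 0.0043) and Mycl (-1.82 ± 0.50, 0.019) were lower and Max (0.47 ± 0.08, 0.0010) was higher. Mycl did not pass without WGP replicate 3 (0.056) or PBS replicate 1 (0.073), or with the Y-linked covariate (0.069), neither passed without PBS replicates 1 and 3, and 2 genes were higher without WGP replicate 1.

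**Figure D5:**
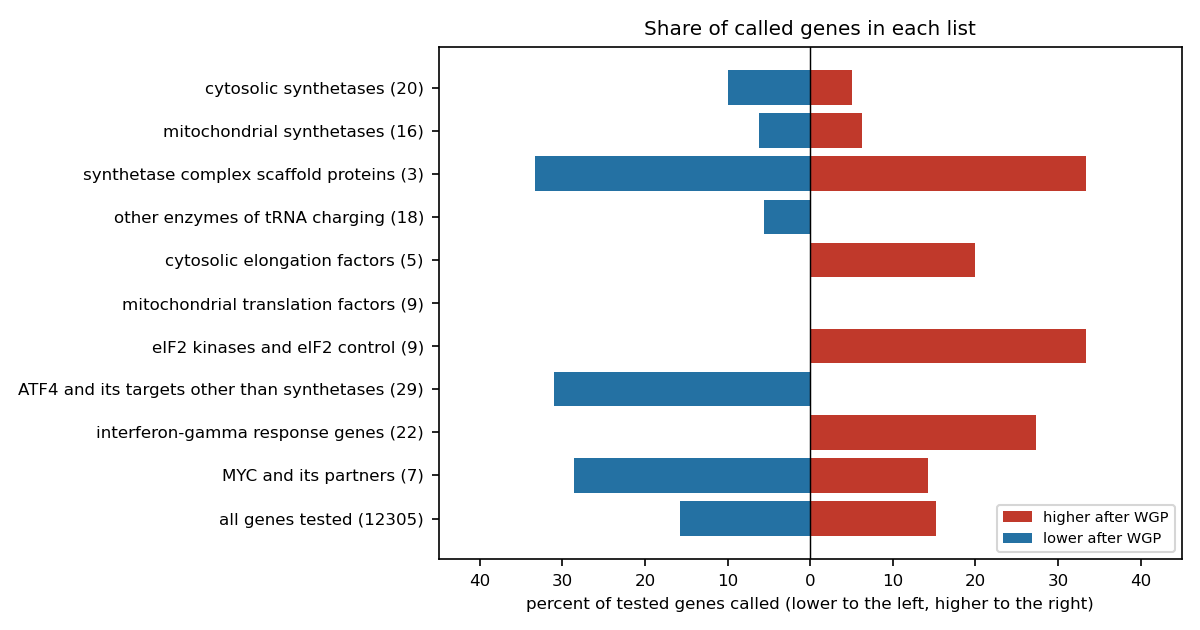
Percent of tested genes called lower (to the left) and higher (to the right) after WGP in each gene list and among all genes tested. Both directions together, 15.0% of the cytosolic and 12.5% of the mitochondrial synthetases were called, against 31.0% of all genes tested. The number of genes tested is in parentheses.

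The strand setting of the counting is not given in the sources used here, and 13 of the 36 genes (6 cytosolic and 7 mitochondrial) share exon bases with another gene, so reads of both cannot be told apart there. Cars shares 211 bases with Gm15580, Mars1 68 bases with Ddit3 (-0.73 ± 0.17, adjusted p = 0.0081), Hars and Hars2 195 bases with each other, Aars 1326 bases with Exosc6, and Iars2 up to 2034 bases with a neighbour. Gars, Qars and Sars2 share none. With 3 libraries a group the smallest two-sided p of an exact test is 0.1, and no gene was tested outside the fit over the whole table.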

How the data were processed

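The data were RNA-seq read counts per gene of 6 libraries of lung interstitial macrophages, grouped as WGP or PBS by the labels. The authors deposited whole-number counts. The submitters' processing notes name HTSeq 0.10.0, FastQC 0.10.1 and the builds GRCm38 and mm10. For aligner, annotation and strand setting, nothing is given in the sources used here. GENCODE M21 (GRCm38) matched 21939 of 21965 identifiers and supplied symbols, coordinates and the lengths of principal transcripts. Mars1 is named Mars there.

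Differences, WGP over PBS, were tested with edgeR 4.0.16 in R 4.3.3 (low counts removed by filterByExpr at a minimum count of 10, TMM, glmQLFit with robust estimation, two-sided quasi-likelihood F test) at an adjusted p under 0.05, by Benjamini and Hochberg's method across 12305 genes. The procedure was tested on simulated data. The SE is the size of the log2 fold change divided by the square root of F, and its 95% interval uses the test's t quantile, so both are approximate. CPM are TMM-normalised counts, and levels per kb are CPM divided by transcript length. Errors of levels are SD over 3 libraries. Totals of 18254678 to 20346517 counts set the precision, and the biological coefficient of variation was 0.18.

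The members and gene lists were chosen with earlier results of these data known. All members are named. Of the other lists, genes past the threshold are named by smallest p, up to 4 a list. Aimp2, the GatCAB genes, Atf4, Eif2ak4, Ddit3, Ubfd1, Sesn2, Pycr1, Phgdh and Aldh18a1 were added for their roles, overlaps or calls after values were seen. The marker lists served only as a check of the cells, beside 15.2% of all genes higher and 15.7% lower. The neutrophil (0 of 10 higher or lower), fibroblast (3 of 9 lower), T and NK cell (2 of 10 lower) and B cell (1 of 6 lower) lists complete those in the text. Leaving out 1 library moved these counts, to 5 fibroblast genes lower without WGP replicate 1 and 1 higher without PBS replicate 2. For T and NK cells 1 gene was lower without WGP replicate 1 (where 1 was higher), WGP replicate 2, PBS replicate 1 or PBS replicate 3. For B cells 2 were lower without WGP replicate 2, and for neutrophils 2 were lower without PBS replicate 3 and 1 was higher without PBS replicate 2. With the Y-linked covariate 1 T and NK cell gene and 2 neutrophil genes were lower.

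Alternatives were other scalings, other low-count filters, DESeq2 1.42.0, limma-voom (limma 3.58.1), no robust estimation, the replicate number as a block, a covariate for the summed Y-linked level, and fits without PBS replicates 1 and 3 or without each library in turn. Promoter windows came from a RefSeq table on GRCm38.p6. No genome was used.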

Additional observations from a re-analysis of the deposited data

How the results depend on the processing

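Over 17 alternative settings, 541 of 612 values of single synthetases kept direction and side of the threshold, 20 lost the call, 6 gained it and 45 changed sign. Ears2, Gars, Cars, Qars and Sars2 kept their direction in all of them, and of the 306 values of the other named genes 38 lost the call. The cause of these changes was not tested.

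No mitochondrial synthetase was higher (0) with upper quartile scaling, library sizes alone, the replicate block or without PBS replicates 1 and 3. The cytosolic count of higher genes was 0 with library sizes alone and 2 with DESeq2 or the Y-linked covariate. The cytosolic count of lower genes was 1 without robust estimation, with the Y-linked covariate or without PBS replicates 1 and 3. Leaving out 1 library gave 1 to 2 cytosolic genes higher, 1 to 3 lower, 0 to 1 mitochondrial genes higher and 2491 to 3717 genes changed in all, the fewest without PBS replicate 1. Without PBS replicates 1 and 3, which had the lowest Y-linked levels, 1820 genes changed.

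The cytosolic and mitochondrial medians were -0.095 and -0.12 with upper quartile scaling, -0.14 and -0.16 with library sizes alone, and 0.012 and 0.0080 without PBS replicates 1 and 3. The median of all genes moved with the scaling, to -0.08 and -0.12, and 40% and 33.4% of changed genes were then higher, in place of 49.2%. Leaving out 1 library, the cytosolic median ran from -0.056 to -0.017 and the mitochondrial from -0.067 to 0.024.

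The replicate numbers did not pair the libraries. Deviations of same-numbered libraries correlated at -0.0633, -0.0811 and -0.0458, and none matched its own number best. With the replicate block 3185 genes were called, and the calls of Sars2, Aimp1, Eef1e1 and Wdr4 were lost.

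Signs that changed belonged to values that did not pass. With upper quartile scaling these were Mars1 (-0.026), Rars (-0.058), Hars2 (-0.027), Iars2 (-0.058) and Mars2 (-0.047). With library sizes alone they were Dars (-0.025), Hars (-0.029), Mars1 (-0.067), Rars (-0.099), Hars2 (-0.069), Iars2 (-0.099) and Mars2 (-0.090). With a CPM of at least 1 in 3 libraries they were Rars (-0.0042) and Iars2 (-0.0049), and with the Y-linked covariate Eprs (0.030), Mars2 (-0.28) and Yars2 (0.0094). Without PBS replicates 1 and 3 they were Eprs (0.044), Iars (0.036), Aars2 (0.092), Iars2 (-0.017), Mars2 (-0.053) and Vars2 (0.033). Leaving out 1 library gave ranges that crossed 0 for Dars (-0.020 to 0.18), Eprs (-0.10 to 0.018), Farsa (-0.14 to 0.030), Hars2 (-0.057 to 0.14), Iars2 (-0.032 to 0.033), Lars (-0.12 to 0.024), Lars2 (-0.30 to 0.079), Mars1 (-0.024 to 0.12), Mars2 (-0.19 to 0.20), Nars2 (-0.38 to 0.039) and Rars (-0.096 to 0.11).

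The median SE was 0.10 for the cytosolic and 0.18 for the mitochondrial genes, and the fewest reads in a library were 350 for the cytosolic and 15 for the mitochondrial genes.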
